A study of Mus musculus with 6 samples.

Results

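The liver of mice that received CCl4 and JT003 was compared directly with the liver of mice that received corn oil, to show which genes still stood apart from the vehicle liver after treatment. These are 2 of the 6 liver RNA-seq libraries of the series, with 1 library per group, and the CCl4 library does not enter the ratio. All genes with at least 10 counts in either library were kept, which gave 13731 of 18042 gene identifiers. CCl4 is a hepatotoxin that pericentral hepatocytes convert into reactive radicals, and JT003 is a peptide agonist of the adiponectin receptors AdipoR1 and AdipoR2.

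All mice were male C57BL/6 by the labels, C57BL/6J by the study's methods, of 6 to 8 weeks of age. The methods do not say whether this was the age at the start or at sacrifice. The CCl4 plus JT003 mice were injected with CCl4 at 20% in corn oil, 5 ml per kg, every 3 days for 6 weeks, and with JT003 at 0.5 mg per kg daily for 3 weeks. The corn oil mice received an equal volume of oil. The groups had 6 mice and an 8 h fast, and whether a library holds RNA of 1 mouse or of a pool, and the hour at which the livers were taken, were not given in the sources used here. The CCl4 library and the chow library, the control of the diet experiment, are given beside the ratio as values of their own. By the study's methods the diet course was longer than the CCl4 course, so chow and corn oil mice also differed in time on study. The diet of the corn oil mice was not given there. The rounded counts of these libraries summed to 19374236 to 20184557.

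With 1 library per group there was no replicate check, so each test compares 2 libraries and not 2 conditions. Log2 ratios are of CCl4 plus JT003 over corn oil on TMM-scaled counts. The ranges in parentheses are 95% Clopper-Pearson intervals and cover counting error only, because 1 library per group gives no spread between mice. They treat each read as a separate molecule, though the reads carry no molecular identifiers. Calls required a 2-fold difference and an adjusted p under 0.001, from a two-sided exact binomial test of each gene's reads with Benjamini-Hochberg adjustment over all genes tested. Such a call says that the libraries differed, whatever the spread between mice.

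Of the 13731 genes, 894 passed (6.51%). In CCl4 plus JT003, 580 of them were higher (4.22%) and 314 were lower (2.29%), around an overall median of 0.02 on the log2 scale. Scaling to total counts shifted log2 ratios and list medians up by about 0.31, and by less for genes of few counts. It gave 1112 higher and 179 lower, so that 86.1% of the calls were higher instead of 64.9%. By the same rule, 9.27% of genes were called for CCl4 over corn oil and 7.22% for chow over corn oil, so the share called between 2 control libraries was of the same order. When a coefficient of variation of 0.4 between mice was assumed in edgeR's exact test, since these libraries cannot give that spread, 25 genes were called, 4 higher and 21 lower. Of these, 10 were Mup genes.

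**Figure D1:**
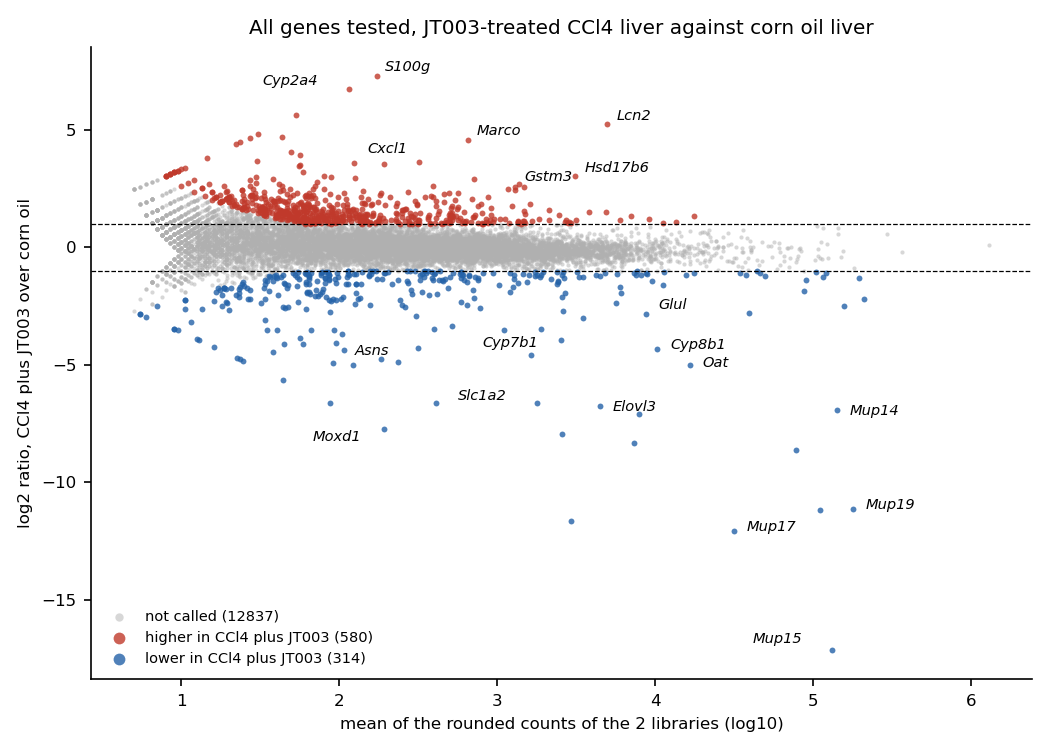
Log2 ratio of CCl4 plus JT003 over corn oil (vertical axis) against the mean of the rounded counts of the 2 libraries (log10, horizontal axis), 1 point per gene, with dashed lines at a log2 ratio of 1 in either direction. The most abundant genes with a large difference lay below 0, with Mup19 at -11.14, while the 580 higher genes were mostly of low or middle count.

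The pattern across the gene lists was uneven. For CCl4 plus JT003 over corn oil, the called members of every list stand beside backgrounds of 4.22% higher and 2.29% lower. In the adult liver, pituitary growth hormone pulses set sex-biased expression in hepatocytes, Wnt signals from the central vein set the pericentral program, and stellate cells deposit the collagen of the scar when activated. The male-biased list had a median of -2.27 and the macrophage list one of 1.71, beside 0.02 for all genes tested. Lists of hepatocyte identity, oxidative phosphorylation, TGF-beta signaling and the adiponectin axis had no called member, beside 6.51% called over all genes tested. A list of 15 to 26 members may have none called at that share.

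**Figure D2:**
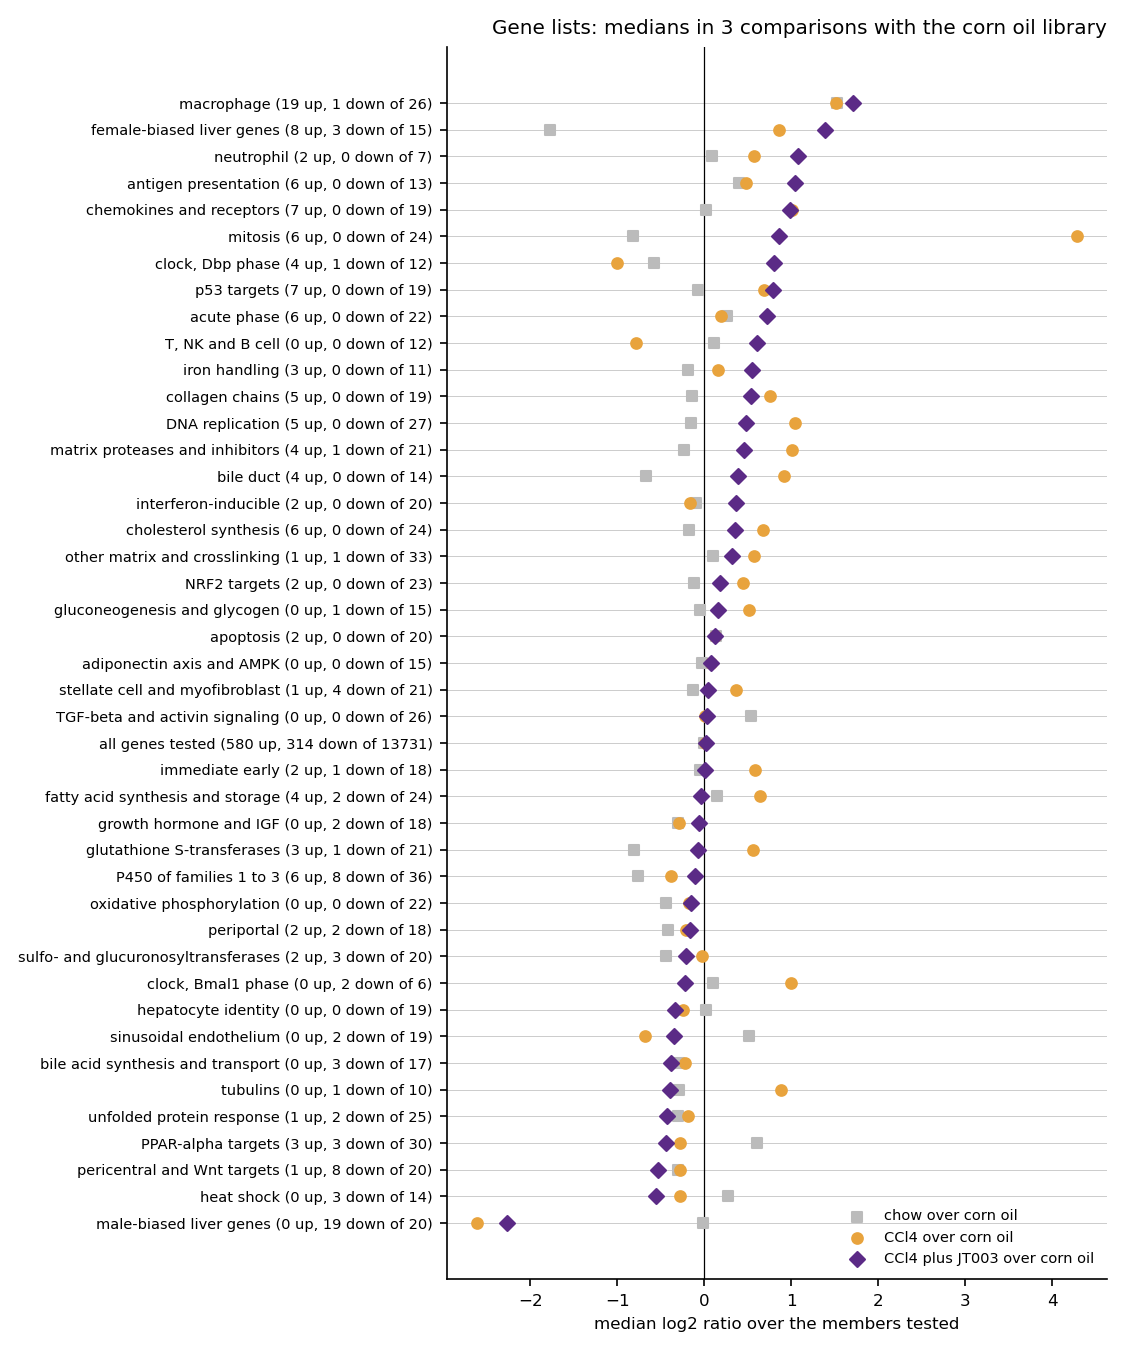
Median log2 ratio over the tested members of each gene list for CCl4 plus JT003, CCl4 and chow, each over the corn oil library, with the members called in CCl4 plus JT003 over corn oil given beside the list name. The 3 comparisons share the corn oil library. The mitosis median was 0.85 in CCl4 plus JT003 and 4.28 in CCl4, whereas the male-biased medians were -2.27 and -2.61.

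Male-biased liver genes were nearly all lower. Of 20 members, 19 were lower in CCl4 plus JT003 and 0 were higher, beside a background of 2.29% lower. The exception was Cspg5, with 68 counts in corn oil and 49 in CCl4 plus JT003. For CCl4 over corn oil 16 of these members were lower (background 3.16%), and for chow over corn oil the median was -0.02. Against the chow library in place of corn oil, 17 were lower (background 6.76%) with a median of -2.16. The libraries were male as labelled, since the Y-linked Ddx3y, named as a check outside the rule for genes, had 751 counts in corn oil, 962 in CCl4 plus JT003, 828 in CCl4 and 846 in chow.

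Elovl3, an elongase of long-chain fatty acids, had 8783 counts in corn oil and 99 in CCl4 plus JT003, a log2 ratio of -6.74 (-7.08 to -6.49). It had 731 in CCl4 and 14013 in chow, so the CCl4 plus JT003 library was the lowest of the 4. Moxd1, a monooxygenase-like protein, had 383 counts in corn oil, 950 in chow and 0 in both CCl4 libraries, at least 158-fold lower in CCl4 plus JT003 with a floor of 3 counts per library. Cyp7b1, the oxysterol 7-alpha-hydroxylase, had 4673 counts in corn oil, 375 in CCl4 plus JT003, 400 in CCl4 and 8190 in chow, and its log2 ratio was -3.94 (-4.10 to -3.79). Both CCl4 libraries were low and both control libraries were high for these genes. Hsd3b5, a steroid reductase of male liver, had 454 counts in corn oil and 17 in CCl4 plus JT003, beside 15 in CCl4 and 186 in chow. Susd4, with 238 counts in corn oil and 7 in CCl4 plus JT003, was at -5.01. With library sizes taken as total counts 14 of the 20 were lower.

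Major urinary proteins, carriers of pheromones that male liver secretes, made up 10 of the 15 largest falls. The 21 Mup genes summed to 2039343 counts in corn oil, 10.5% of the library, and to 244994 in CCl4 plus JT003, 1.26% of it. They summed to 154826 in CCl4 and 1230520 in chow. Of the 21, 20 were lower. The exception, Mup18, named after its values were seen, had 7442 counts in corn oil, 19508 in CCl4 plus JT003, 15895 in CCl4 and 22549 in chow. Mup15 had 260453 counts in corn oil and 45274 in chow but 0 in both CCl4 libraries. Mup19 had 357104 counts in corn oil and 193 in CCl4 plus JT003, and Mup11 had 220224 and 116. The members are near-identical copies, so single members are uncertain, because the authors' estimate divides shared reads among them, whereas the sum does not depend on that division.

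Female-biased liver genes went mainly the other way, but not all of them. Of 15 members tested, 8 were higher and 3 were lower, with a median of 1.38. Cyp2a4, a steroid hydroxylase of female liver, had 0 counts in corn oil and 231 in CCl4 plus JT003, at least 62.4-fold higher, beside 943 in CCl4 and 2 in chow. Cyp2b9 had 1 count in corn oil and 86 in CCl4 plus JT003, with 113 in CCl4 and 0 in chow. Cux2, a repressor of male-biased genes in female liver, had 6 counts in corn oil, CCl4 also 6, chow 3 and CCl4 plus JT003 106, a log2 ratio of 3.49 (2.67 to 5.32), so that it was high in the JT003 library alone. Hamp2, a hepcidin paralog, had 138, 1281, 768 and 27 counts in corn oil, CCl4 plus JT003, CCl4 and chow. The lower members were Cyp2c40 (-4.37), Cyp2c69 (-3.53) and Cyp2c39 (-1.11), all of the Cyp2c family. Against the chow library Cyp2c39 turned to 0.90.

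Growth hormone and IGF genes had a median of -0.06. Of 18 members 0 were higher and 2 were lower, Igfbp5 (-2.04) and Igfbp6 (-1.26), beside a background of 2.29% lower. Against the chow library Igfbp5 and Igfbp6 turned to 1.32 and 1.75. Igf1, the growth hormone target that liver secretes, had 11028 counts in corn oil and 13281 in CCl4 plus JT003, a log2 ratio of -0.04 (-0.07 to 0.00). The receptor gene Ghr had a log2 ratio of -0.14 (-0.20 to -0.08). Socs2, a feedback inhibitor that growth hormone induces, named after its values were seen, had 533, 1314, 295 and 491 counts in corn oil, CCl4 plus JT003, CCl4 and chow. Its log2 ratio of 0.99 (0.85 to 1.15) was just under the threshold. On total counts 1 member of the list was higher and 1 lower.

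Among pericentral genes and Wnt targets, 8 of 20 were lower and 1 was higher, with a median of -0.54, and 4 were lower on total counts. The largest differences were in glutamate handling. Slc1a2, a glutamate transporter, had 3513 counts in corn oil and 42 in CCl4 plus JT003, a log2 ratio of -6.62 (-7.17 to -6.25), beside 6 in CCl4 and 3150 in chow. Oat, ornithine aminotransferase, had 31746 counts in corn oil and 1224 in CCl4 plus JT003, 32.0-fold lower, beside 1413 in CCl4 and 30312 in chow. Glul, the glutamine synthetase of the hepatocytes around the central vein, had 14862, 2594, 1962 and 17991 counts in corn oil, CCl4 plus JT003, CCl4 and chow, a log2 ratio of -2.82 (-2.88 to -2.76). In these genes the JT003 library lay with the CCl4 library and far from both controls.

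Cyp2e1, the P450 that activates CCl4, lay between them. It had 151340 counts in corn oil, 77764 in CCl4 plus JT003, 39104 in CCl4 and 127881 in chow, a log2 ratio of -1.26 (-1.28 to -1.25). It fell under the threshold against the chow library (-0.91) and on total counts (-0.96). Sp5, a transcription factor that Wnt signals induce, had 64 counts in corn oil and 18 in CCl4 plus JT003 (-2.01). The pericentral Cyp1a2 had 6742 counts in corn oil and 7071 in CCl4 plus JT003 and was not called (-0.24). Rspo3, an enhancer of Wnt signaling made by central vein endothelium, was also lower, with 98 and 57 counts (-1.06).

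Periportal genes had 2 higher and 2 lower of 18. Aldh1b1, a mitochondrial aldehyde dehydrogenase, had 337 counts in corn oil and 2240 in CCl4 plus JT003 (2.42, 2.26 to 2.60), beside 3953 in CCl4 and 398 in chow. Agxt, alanine-glyoxylate aminotransferase, was at -1.67 and Hpd at -1.01. Cps1, the entry enzyme of the urea cycle, was at -0.94 and was not called. The hepatocyte identity list had 0 of 19 members called in either direction and a median of -0.34. Alb had 1115249 counts in corn oil and 1476971 in CCl4 plus JT003 (0.10).

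Of 17 genes of bile acid synthesis and transport 3 were lower and 0 higher, with a median of -0.38. Cyp8b1, the sterol 12-alpha-hydroxylase that makes cholic acid, had 19408 counts in corn oil and 1186 in CCl4 plus JT003, a log2 ratio of -4.33 (-4.42 to -4.25), beside 2950 in CCl4 and 20532 in chow. It was lowest in the JT003 library. Cyp7b1, described above, and the uptake carrier Slco1a1, with 4350 counts in corn oil and 830 in CCl4 plus JT003 (-2.69), were the others. The alternative-pathway enzyme Cyp27a1 was at -0.56 and the bile salt uptake carrier Slc10a1 at -0.52, and neither was called.

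**Figure D3:**
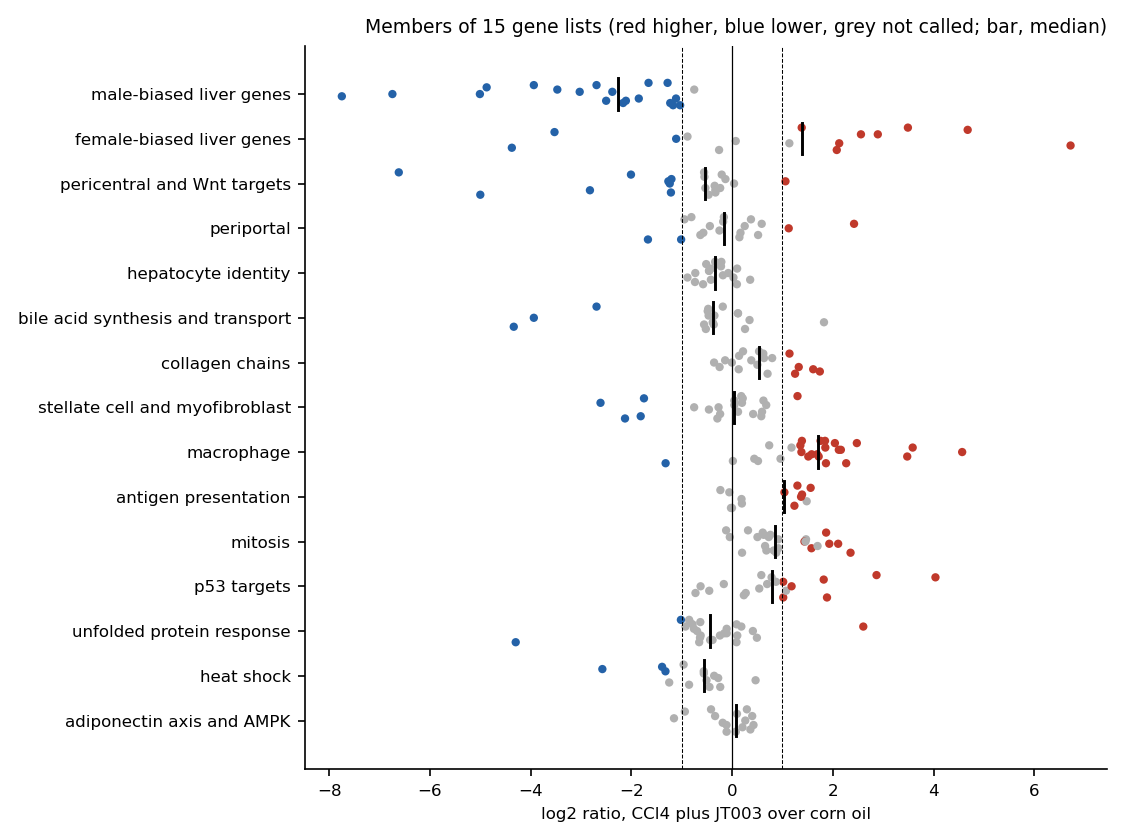
Log2 ratio of CCl4 plus JT003 over corn oil for each tested member of 15 gene lists, red where called higher, blue where called lower and grey where not called, with a black bar at the list median. Male-biased genes lay almost entirely below -1 and macrophage genes almost entirely above 0. Of the 19 hepatocyte identity genes 15 lay below 0, with a median of -0.34, and the adiponectin list lay around 0, with a median of 0.07.

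Part of the scar genes were above the corn oil liver. Of 19 collagen chains, 5 were higher (background 4.22%) and 0 lower, with a median of 0.54, beside 8 higher and 1 lower for CCl4 over corn oil. With an assumed coefficient of variation of 0.2 or 0.4, or at a log2 ratio of at least 2, 0 of the 19 were called. Col1a1, the main chain of fibrillar scar collagen, had 231 counts in corn oil and 876 in CCl4 plus JT003, a log2 ratio of 1.61 (1.41 to 1.83), beside 2483 in CCl4 and 178 in chow. Col3a1 had 291, 1208, 2214 and 352 counts in corn oil, CCl4 plus JT003, CCl4 and chow, a log2 ratio of 1.74 (1.56 to 1.94). Col5a2 was at 1.32 and Col4a5 at 1.25. The JT003 library lay between the CCl4 library and both controls for Col1a1 and Col3a1. The basement membrane chains Col4a1 (0.14) and Col18a1 (-0.14) were not called. In a liver sample, more collagen-producing cells and more RNA per cell cannot be told apart.

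Other matrix genes had 1 higher and 1 lower of 33, close to the backgrounds of 4.22% higher and 2.29% lower, and 7 higher on total counts. Nid1, a basement membrane linker, had 165 counts in corn oil and 460 in CCl4 plus JT003 (1.17), and Npnt had 65 and 5 (-3.52). Fn1, fibronectin, had 16558 and 23588 counts and was at 0.21. Among proteases and inhibitors 4 of 21 were higher and 1 was lower. Mmp12, the macrophage elastase, had 0 counts in corn oil and 47 in CCl4 plus JT003, beside 175 in CCl4 and 9 in chow. Mmp7 was at 2.39, Adam8 at 1.73 and Adamts1 at 1.26, and Adamts1 was at -0.69 against chow. Serpine2, an inhibitor of serine proteases, was lower at -2.46. Timp1 had 12 counts in corn oil and 24 in CCl4 plus JT003 (0.62, -0.36 to 1.83), a difference not detectable at this depth.

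Stellate cell and myofibroblast genes did not follow the collagens. Of 21 members, 1 was higher and 4 were lower, with a median of 0.05. Acta2, the smooth muscle actin used as a mark of activated stellate cells, had 165 counts in corn oil and 45 in CCl4 plus JT003, a log2 ratio of -2.13 (-2.69 to -1.70), beside 108 in CCl4 and 31 in chow. Corn oil was thus the highest of the 4 libraries, and against chow the ratio of Acta2 was 0.33. The other lower members, Tpm2, Cnn1 and Hhip, were at -1.81, -2.61 and -1.75. Of 8 smooth muscle markers, chosen after their values were seen, 4 were lower in CCl4 plus JT003. Most of these markers, among them Acta2, Tpm2 and Cnn1, are also in the stellate list, so they largely repeat its values. Only Myh11 (-1.52) was a further lower gene. The 8 markers summed to 770 counts in corn oil, 429 in CCl4 plus JT003, 770 in CCl4 and 295 in chow. A list of 6 mesothelial markers, chosen in the same way, summed to 330, 219, 398 and 38 counts in that order, with 2 lower. The adipocyte adipsin Cfd had 175 counts in corn oil, 0 in CCl4 plus JT003 and 2 in each other library, and Adipoq had 11, 0, 1 and 0. The part of such cells in the falls of Acta2 and the other lower members was not tested.

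TGF-beta and activin signaling had 0 of 26 members called, with a median of 0.03. On total counts 5 were higher, and Tgfb1 was at 1.01. Tgfb1, the main fibrogenic cytokine, had 103 counts in corn oil and 209 in CCl4 plus JT003 (0.71), beside 257 in CCl4 and 184 in chow. Ctgf had 228 and 250 counts (-0.17).

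**Figure D4:**
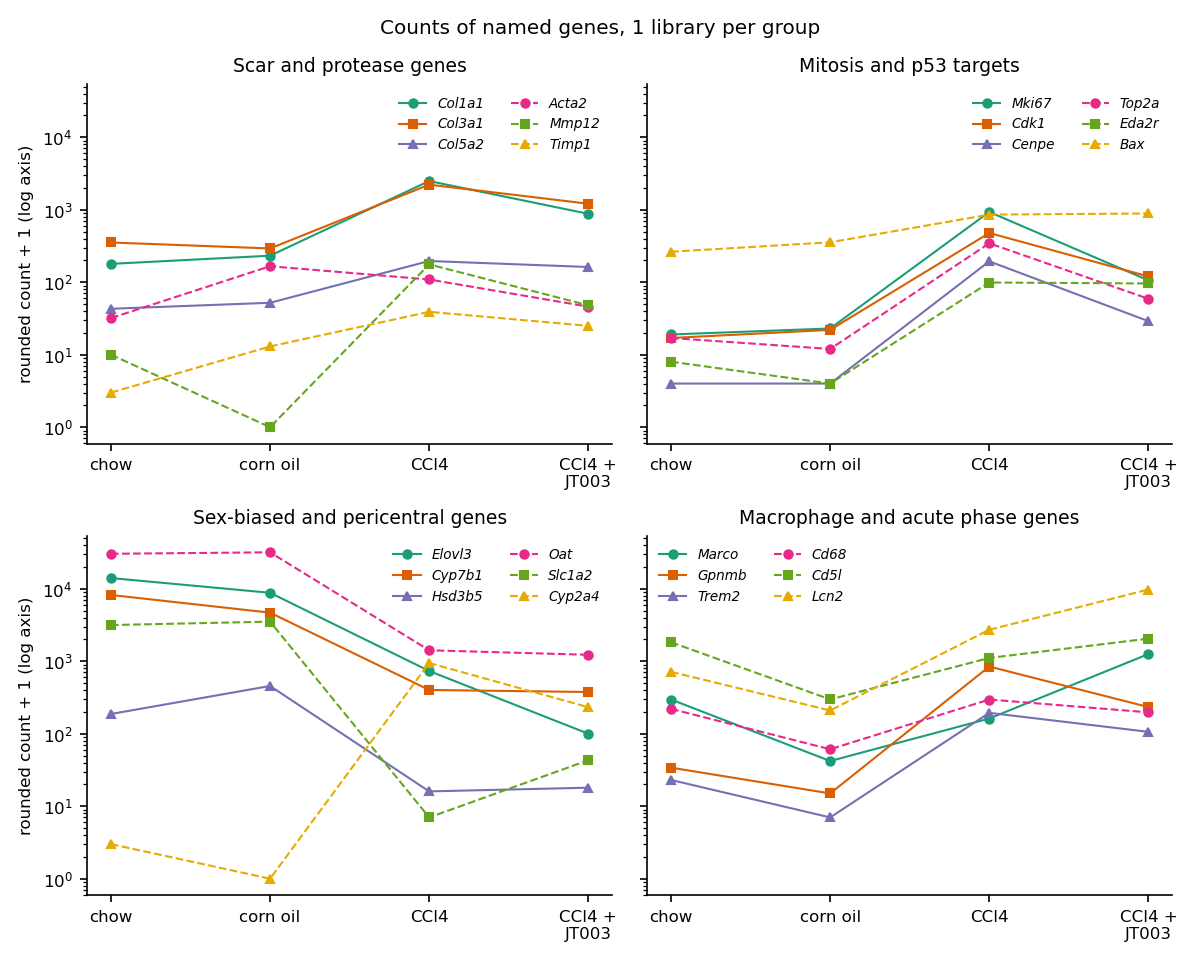
Rounded counts plus 1 (log axis) of 24 named genes in the chow, corn oil, CCl4 and CCl4 plus JT003 libraries, 1 library per group, with lines that only join the values of a gene. In CCl4 plus JT003 the plotted mitosis genes and collagens lay below the CCl4 library, Elovl3, Cyp7b1, Hsd3b5, Oat and Slc1a2 lay far below both control libraries, and Marco and Lcn2 were highest in CCl4 plus JT003.

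Part of the cell cycle genes were above the corn oil liver. Of 24 mitosis genes, 6 were higher and 0 lower and the median was 0.85, while for CCl4 over corn oil all 24 were higher (background 6.11%) with a median of 4.28. Mki67, a mark of cycling cells, had 22 counts in corn oil and 105 in CCl4 plus JT003, a log2 ratio of 1.87 (1.28 to 2.68), beside 929 in CCl4 and 18 in chow. Cdk1, the kinase that drives entry into mitosis, had 21, 119, 476 and 16 counts in corn oil, CCl4 plus JT003, CCl4 and chow (2.11, 1.52 to 2.94). Top2a, the topoisomerase of dividing cells, was at 1.93 and the kinetochore motor Cenpe at 2.35. Aurka had 51 counts in corn oil and 61 in CCl4 plus JT003 and was not called. With an assumed coefficient of variation of 0.2 or 0.4, 0 of the 24 were called, and against chow 13 were higher (background 6.5%). DNA replication genes had 5 higher of 27 and a median of 0.48, beside 1.04 for CCl4 over corn oil, with Uhrf1 at 1.87, Ccne1 at 1.74 and Lig1 at 1.25, while Pcna was at 0.03.

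The p53 targets stood apart from the mitosis genes. Of 19 members, 7 were higher and 0 lower, with a median of 0.78 beside 0.68 for CCl4 over corn oil. Eda2r, a death receptor of the TNF receptor family, had 3 counts in corn oil, 95 in CCl4 plus JT003, 98 in CCl4 and 7 in chow. Psrc1 had 4, 50, 87 and 5 counts in that order, and Phlda3, an inhibitor of Akt, had 25, 120, 224 and 14. Gdf15, a stress-induced cytokine, had 115 counts in corn oil and 507 in CCl4 plus JT003 (1.82, 1.54 to 2.14). In Bax, the pore-forming apoptosis gene, the JT003 library was at the CCl4 level, with 354, 886, 855 and 262 counts, and its log2 ratio of 1.02 (0.84 to 1.20) was close to the threshold. Cdkn1a, the cell cycle inhibitor p21, had 1050 counts in corn oil, 783 in CCl4 plus JT003 and 3208 in CCl4, and was not called (-0.73). Of the further apoptosis genes only Bcl2a1b was called, at 2.19, among 20, and Bid (0.29) and Bcl2l11 (-0.05) were not.

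Macrophage genes had 19 higher and 1 lower of 26, with a median of 1.71. Marco, a scavenger receptor of resident macrophages, had 41 counts in corn oil and 1252 in CCl4 plus JT003, a log2 ratio of 4.57 (4.18 to 5.11), beside 161 in CCl4 and 295 in chow. The scar-associated markers Gpnmb and Trem2 were higher in both CCl4 libraries than in both controls. Gpnmb had 14 counts in corn oil, 232 in CCl4 plus JT003, 843 in CCl4 and 33 in chow, and Trem2 had 6, 105, 193 and 22. In Cd68, Cd5l and Clec4f, however, the chow library was above at least 1 of the CCl4 libraries. This did not hold for all members. Spp1 had 582, 2623, 2597 and 398 counts in corn oil, CCl4 plus JT003, CCl4 and chow, and Lgals3 had 41, 234, 485 and 120. Cd68, a lysosomal protein of macrophages, had 60, 196, 295 and 219 counts in corn oil, CCl4 plus JT003, CCl4 and chow (1.38), and was at -0.35 against chow. Cd5l, secreted by resident macrophages, had 296, 2046, 1108 and 1824 counts in that order (2.48) and was at -0.03 against chow. The Kupffer cell lectin Clec4f had 413, 852, 517 and 1418 counts and was not called (0.74).

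The median of the list for chow over corn oil was 1.53, and against chow in place of corn oil it was 0.03, with 6 higher and 3 lower. The members higher than chow included Gpnmb (2.56), Trem2 (1.97) and Marco (1.89). Of 13 antigen presentation genes 6 were higher, all of the class II pathway, with H2-DMa at 1.56, H2-Ab1 at 1.39 and H2-Aa at 1.30, and against chow 0 of the 13 were called. The class I genes H2-K1 (-0.23) and B2m (-0.02) were not called. Neutrophil genes had 2 higher of 7, Csf3r at 1.34 and S100a9 at 1.28. In T, NK and B cells 0 of 12 were called, with a median of 0.61, and the list summed to 170 counts in corn oil and 280 in CCl4 plus JT003, so that few reads stood behind each member.

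Of 19 chemokines and receptors 7 were higher and 0 lower. Cxcl1, a neutrophil attractant, had 23 counts in corn oil, 357 in CCl4 plus JT003, 72 in CCl4 and 18 in chow, a log2 ratio of 3.55 (3.04 to 4.33), and thus was highest in the JT003 library. Cx3cr1, a receptor of monocytes, was at 2.10. Cxcl13, a B cell attractant, was at 2.34, and at -0.01 against chow.

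Acute phase genes, which hepatocytes induce in inflammation, had 6 higher and 0 lower of 22, and 12 higher on total counts. Lcn2, the iron-siderophore carrier lipocalin 2, had 208 counts in corn oil and 9725 in CCl4 plus JT003, 37.5-fold higher, beside 2714 in CCl4 and 712 in chow. Its log2 ratio of 5.23 (5.04 to 5.45) also passed with the assumed coefficient of variation of 0.4. Orm2 was at 2.13 and Orm3 at 1.84. Saa3, a serum amyloid gene, had 108, 415, 436 and 290 counts in corn oil, CCl4 plus JT003, CCl4 and chow (1.62). Fibrinogen genes were level with corn oil (Fga at 0.01, Fgb at -0.05). In iron handling 3 of 11 were higher, the hormone hepcidin Hamp (1.33), its paralog Hamp2 (2.89) and the iron exporter Slc40a1 (1.17). Hamp had 8596 counts in corn oil and 26719 in CCl4 plus JT003, beside 8132 in CCl4 and 6106 in chow, so the JT003 library stood alone.

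Clock genes differed between the libraries by phase. Bmal1 and its partner drive genes with E-box elements, DBP acts on D-boxes, and REV-ERB proteins repress Arntl, which encodes Bmal1, through RORE elements. Of the Bmal1-phase genes, Arntl had 142 counts in corn oil, 34 in CCl4 plus JT003, 386 in CCl4 and 195 in chow, a log2 ratio of -2.29 (-2.95 to -1.82), and Npas2 had 27, 5, 179 and 58 (-2.30). Of the 12 Dbp-phase genes 4 were higher and 1 was lower. Per3, a period gene, had 180 counts in corn oil, 898 in CCl4 plus JT003, 87 in CCl4 and 104 in chow (log2 interval 1.78 to 2.25), and Wee1, Usp2 and Per2 were at 2.29, 1.74 and 1.32. Dbp itself had 824, 1931, 96 and 398 counts in that order and was at 0.92. Nr1d1, which encodes REV-ERB alpha, was lower at -1.24. On total counts Nr1d1 was at -0.94, no longer called, and Dbp at 1.23. In Arntl, Npas2, Per3 and Dbp the CCl4 and the JT003 libraries lay on opposite sides of corn oil, and time of day cannot be told apart from treatment here.

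The promoters of the 2 called genes that carried a D-box or RORE are shown because they lie at opposite ends of this phase pattern. They are RefSeq sequences of build GRCm38.p6, from 250 bases before to 50 after the start, 5′ to 3′ on the gene's strand, with the motif in capitals.
Per3 (chr4:151044616-151044915, minus strand): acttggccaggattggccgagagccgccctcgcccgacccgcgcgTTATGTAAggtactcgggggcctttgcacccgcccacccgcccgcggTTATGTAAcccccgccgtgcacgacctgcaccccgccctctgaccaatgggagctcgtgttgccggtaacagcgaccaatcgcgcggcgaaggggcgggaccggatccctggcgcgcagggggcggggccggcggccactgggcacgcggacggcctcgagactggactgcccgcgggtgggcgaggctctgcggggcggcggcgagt
Arntl (chr7:113207261-113207560, plus strand, the second of 2 starts): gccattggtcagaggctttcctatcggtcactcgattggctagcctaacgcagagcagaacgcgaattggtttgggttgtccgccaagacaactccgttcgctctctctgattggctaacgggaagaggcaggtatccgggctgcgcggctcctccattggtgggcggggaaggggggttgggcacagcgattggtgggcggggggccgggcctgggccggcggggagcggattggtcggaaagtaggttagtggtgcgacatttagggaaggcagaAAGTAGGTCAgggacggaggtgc

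On both strands, the D-box TTATGNAA was in 3.38% of all 32851 promoters of this length, the RORE, AANT followed directly by AGGTCA, in 0.219% and the E-box CACGTG in 7.15%. Of the 18 clock genes 15 had a promoter in the table, and 5 genes held an E-box, 2 a D-box and 1 a RORE. Per3 held the D-box at 2 places. A match describes the letters only, and no binding was measured.

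**Figure D5:**
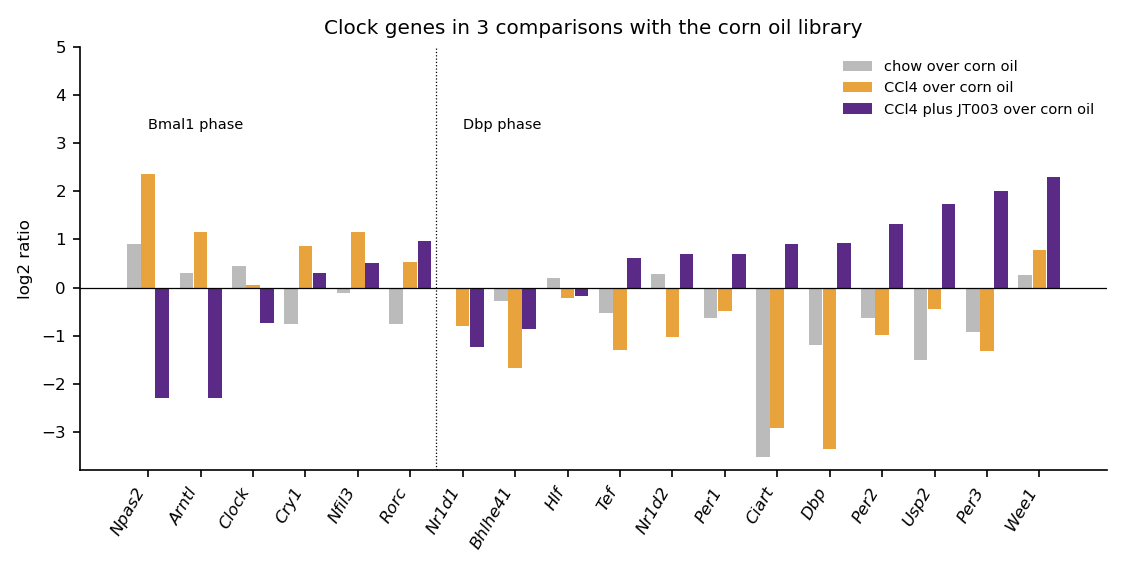
Log2 ratios of 18 clock genes over the corn oil library in chow, CCl4 and CCl4 plus JT003, with the Bmal1-phase genes left and the Dbp-phase genes right of the dotted line. Npas2 and Arntl were lowest in CCl4 plus JT003, at -2.30 and -2.29, whereas Per3 and Wee1 were highest there.

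Endoplasmic reticulum stress genes were not above the corn oil level as a list. Of 25 members of the unfolded protein response 1 was higher and 2 were lower, beside backgrounds of 4.22% and 2.29%. So few calls do not set the list apart from those backgrounds. The median was -0.44, and total counts shift list medians up by about 0.31, so its distance from 0 depends on the scaling. On total counts 1 member was higher and 1 lower. Atf3, a stress-induced transcription factor, had 15 counts in corn oil and 124 in CCl4 plus JT003 (2.61), beside 248 in CCl4 and 38 in chow. Hspa5, the chaperone GRP78, had 9516, 5811, 7967 and 8141 counts in corn oil, CCl4 plus JT003, CCl4 and chow (-1.02, -1.06 to -0.97), and on total counts it was at -0.71 and not called. Asns, the asparagine synthetase that ATF4 induces, had 590 counts in corn oil, 35 in CCl4 plus JT003, 142 in CCl4 and 205 in chow (-4.30), the lowest again in the JT003 library. Atf4 (0.10) and Xbp1 (-0.24) were not called. Heat shock genes had 3 lower of 14, Hspb1 at -2.58, Hspa1b at -1.39 and Hsph1 at -1.32.

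Detoxification genes differed in both directions. Of 36 P450 genes of families 1 to 3, 6 were higher and 8 lower. Cyp2b10, a target of the receptor CAR, had 4 counts in corn oil, 108 in CCl4 plus JT003, 421 in CCl4 and 0 in chow. Cyp2c55 was at 2.18, while Cyp2c37 was at -1.95 and Cyp2c38 at -1.73. Cyp2c38 was at 0.26 against chow. Among 21 glutathione S-transferases, Gstm3 had 304 counts in corn oil and 2264 in CCl4 plus JT003 (2.59, 2.42 to 2.77), beside 11923 in CCl4, and Gsta1 was at 2.14 and Gsta2 at 1.23. Gstp1, a male-biased form, was lower at -1.23, and Gstm1 was at 0.43 and not called. Of the NRF2 targets 2 of 23 were higher, Hmox1, the heme oxygenase HO-1 (1.75), and G6pdx (1.16), and G6pdx was at -0.22 against chow. Gpx1 was at 0.40.

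Lipid genes were mixed. Cholesterol synthesis had 6 higher and 0 lower of 24, among them Mvd (1.36) and the squalene synthase Fdft1, which had 795 counts in corn oil and 2111 in CCl4 plus JT003 (1.10). In fatty acid synthesis and storage 4 of 24 were higher, Srebf1, Lpl, Thrsp and Elovl6, at 1.19, 1.17, 1.11 and 1.09, and 2 were lower. Cidec, a lipid droplet protein, had 1987 counts in corn oil, 212 in CCl4 plus JT003, 503 in CCl4 and 5423 in chow (-3.52), and Elovl5 was at -1.62. Of 30 PPAR-alpha targets 3 were higher and 3 lower. Acot3, a peroxisomal thioesterase, was at 2.56 and Pdk4 at 1.69, while Cyp4a32 was at -1.70, Ehhadh at -1.20 and Plin2 at -1.07. Pdk4 and Acot2 (1.10) turned against chow, to -0.79 and -0.46. Dgat1 was at -0.30.

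The receptors that JT003 acts on were not called. The adiponectin axis and AMPK list had 0 of 15 members called in either direction, beside a background of 6.51%, and a median of 0.07. With so few members, 0 calls does not set the list apart from that background. Adipor1 had 2050 counts in corn oil and 2348 in CCl4 plus JT003 (-0.11, -0.19 to -0.02), beside 2886 in CCl4 and 2293 in chow. Adipor2 had 7941, 7764, 10236 and 13356 counts in corn oil, CCl4 plus JT003, CCl4 and chow (-0.34, -0.38 to -0.29). Oxidative phosphorylation had 0 of 22 called, with a median of -0.16. The mitochondrial regulators Ppargc1a and Ppargc1b were at 0.21 and -0.94 and the uncoupling protein Ucp2 at 0.48, and none was called.

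The remaining lists stand beside backgrounds of 4.22% higher and 2.29% lower. Of 14 bile duct genes 4 were higher, with a median of 0.38, among them Sox4, a transcription factor, with 26, 109, 141 and 14 counts in corn oil, CCl4 plus JT003, CCl4 and chow (1.70). Epcam, an adhesion molecule of the duct epithelium, had 33, 121, 109 and 12 (1.52), so both CCl4 libraries were above both controls. Of 19 sinusoidal endothelial genes 2 were lower, Vwf (-1.14) and Rspo3, with a median of -0.35, and on total counts 0 were lower and 1 was higher. Of 18 immediate early genes 2 were higher, Klf6 (1.96) and Jun (1.30), and 1 was lower, the orphan receptor Nr4a1 (-1.57). Interferon-inducible genes had 2 higher of 20, Oas1a (1.49) and Ifi27l2a (1.27), and 6 on total counts. Among 20 sulfo- and glucuronosyltransferases 2 were higher and 3 lower, and Ugt2b38 was at -2.16. In glucose metabolism 1 of 15 was lower, the glycogen-targeting subunit Ppp1r3c (-1.45), and of 10 tubulins 1 was lower, Tuba8 (-1.13).

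By the markers of other tissues, 3 of 5 red blood cell genes were lower, the hemoglobin genes Hbb-bt (-1.46), Hba-a2 (-1.21) and Hbb-bs (-1.17), and 1 on total counts. The gut marker Fabp2 was at -1.12. The 1 tested marker each of pancreas and skeletal muscle was not called. Hepatocyte markers, as a check of the tissue, summed to 1635510 counts in corn oil and 1920883 in CCl4 plus JT003, with 0 of 6 called.

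Several of the largest differences lay outside the lists. S100g, a vitamin D-dependent calcium-binding protein, had 0 counts in corn oil, 347 in CCl4 plus JT003, 169 in CCl4 and 1 in chow, at least 93.7-fold higher than in corn oil. Hsd17b6, a hydroxysteroid dehydrogenase, had 557, 5613, 5179 and 584 counts in corn oil, CCl4 plus JT003, CCl4 and chow, a log2 ratio of 3.02 (2.90 to 3.16), so both CCl4 libraries were high and both controls low. Fitm1, which acts in lipid droplet formation, had 813, 8, 35 and 313 counts in that order (-6.62). Vill, a villin-like protein, was at 3.21. Ttc39a was at 2.98 and its antisense RNA Ttc39aos1 at 3.03, and reads of these overlapping genes cannot be told apart without strand.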

How the data were processed

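Liver RNA was sequenced on a BGISEQ-500 by the authors, who deposited per gene an expected count, an estimate of its reads without normalization, and an FPKM value. The deposited FPKM is scaled by the authors to transcript length and library. The submitters' processing notes name HISAT, Bowtie2, RSEM and mm9, with no version. As the reference tables are of GRCm38.p6, coordinates are given only for the RefSeq promoters, in that build, and of 18042 gene identifiers 18003 were found there. Expected counts were rounded.

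Library sizes were scaled by TMM (edgeR 4.0.16, R 4.3.3) over the 2 libraries. The ratio used a prior count of 2, and scipy 1.17.1 gave an exact two-sided binomial p for each gene with at least 10 counts in either library, since with 1 library per group edgeR's quasi-likelihood test cannot be run. The comparison was tested on simulated data. The 47 gene lists, the members and the rules were chosen with earlier results of these data known. Genes named were the 15 largest rises and falls with at least 100 counts. From each list up to 4 called higher, 4 called lower and 4 abundant uncalled members were added. Part of the genes the paper's text names for this experiment, both receptors, and genes named as chosen later completed the choice. Of the paper's genes, Mmp2, Mmp3, Mmp8, Mmp9 and Mmp13 were among those left out. The alternatives were total counts, DESeq2 size factors (1.42.0), TMM over 3 libraries, other count minimums, thresholds and prior counts, edgeR's exact test with an assumed variation, FPKM and the chow library. Of the 6 files, 2 of the diet experiment were not used. A few called list members are counted but not reported here by name.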

Additional observations from a re-analysis of the deposited data

How the results depend on the processing

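The calls rest on 2 libraries, so the spread between mice is unknown. No paired analysis was possible because each group had 1 library, and for the same reason no replicate could be left out. The count of 894 became 554 (337 higher) with at least 100 counts, 1553 (1088 higher) by fold alone, and 246 (138 higher, 108 lower) at a log2 ratio of at least 2. With an assumed variation of 0.2 it was 144 (59 higher, 85 lower) and with 0.4 it was 25 (4 higher, 21 lower). It was 510 (106 lower) on FPKM plus 1, 1606 (1387 higher) on FPKM plus 0.1, and 1823 (894 higher, 929 lower) against chow. Total counts gave 1112 higher and 179 lower. DESeq2 size factors, TMM over 3 libraries, no count minimum and a prior count of 0.5 kept the counts within 1.5-fold.

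Of the 159 called genes among those chosen by the rule, 74, 62 and 22 were called at a log2 ratio of at least 2 and with an assumed variation of 0.2 and 0.4, and of the 190 called list members 67, 52 and 9. Where direction turned against chow, the log2 ratios were -0.46 for Acot2, 0.33 for Acta2, -0.69 for Adamts1, -0.03 for Cd5l, -0.35 for Cd68, -0.01 for Cxcl13, 0.26 for Cyp2c38, 0.90 for Cyp2c39, -0.22 for G6pdx, 1.32 for Igfbp5, 1.75 for Igfbp6, -0.40 for Mup18 and -0.79 for Pdk4, and the cause was not tested. On total counts the named calls lost were Adipoq, Cyp2c39, Cyp2e1, Ehhadh, Fabp2, Gstp1, Hba-a2, Hbb-bs, Hhip, Hpd, Hspa5, Igfbp6, Nr1d1, Plin2, Rspo3, Tuba8 and Vwf, though Adipoq (-2.70) and Hhip (-1.48) stayed past 2-fold, and those gained were Clec4f, Dbp, Socs2 and Tgfb1. Socs2 was also gained with TMM over 3 libraries. Hhip was also lost with no count minimum.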
